A study of Homo sapiens with 12 samples.

Results

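Collagen chain genes are described here in PANC-1 pancreatic carcinoma cells treated for 24 h with chaetocin, with MLN8237, or with both. The genes were chosen by symbol, as every gene named COL, a type number, A and a chain number. Of 57773 genes in the count table, 44 matched. At least 1 read was found for each of the 44, and 33 were tested after a filter on expression. The filter asked for 0.178 CPM (counts scaled to library size), the equivalent of 10 counts in a library of median size, in at least 3 libraries.

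Collagens are matrix proteins whose chains wind around one another in a triple helix. Fibrillar chains build the fibres of connective tissue, type IV chains build the sheet under epithelia, and other chains decorate fibrils, anchor the epithelium or sit in the cell membrane. In pancreatic carcinoma the dense collagen stroma is known to come mainly from stellate cells and fibroblasts, while carcinoma cells add basement membrane and pericellular collagens. The cultures here held the carcinoma line alone, per the labels.

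PANC-1 is an established human line from a pancreatic carcinoma, used below passage 30. There were 4 groups of 3 libraries. Vehicle cells received DMSO, chaetocin cells 30 nM chaetocin, MLN8237 cells 90 nM MLN8237, and combination cells 30 nM chaetocin with 90 nM MLN8237. Chaetocin is a fungal compound known to inhibit the histone H3K9 methyltransferase SUV39H1 and thioredoxin reductase, and MLN8237 (alisertib) inhibits the mitotic kinase Aurora A. In the labels of the combination the name MLN8237 has 1 digit changed, and the treatment protocol spells it MLN8237, which is used here.

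Summed gene counts ran from 49439795 to 63747510 per library. Separate cultures are not stated in the labels, so the p-values reflect only how far these libraries scatter, and that scatter may be technical. Library 2 of the combination lay nearer to chaetocin alone than libraries 1 and 3 did for several collagens, and COL5A2, COL11A1 and COL12A1 were lowest in library 3 of every treated group. Of the markers of the labelled cell type, KRT8, KRT18, KRT19, EPCAM and CDH1 summed to between 4040 and 4640 CPM in vehicle, between 4340 and 5120 with MLN8237, between 2240 and 2410 with chaetocin and between 1840 and 2170 with both. All 5 were lower with chaetocin and with both. Of 9 fibroblast and stellate cell markers, DCN, LUM, FAP and POSTN stayed at or below 0.0622 CPM in every library. THY1 reached 10.3 CPM in its highest library, ACTA2 1.27, PDGFRB 1.01, DES 0.269 and PDGFRA 0.11. The summed level of the 9 was 9.91 to 12.4 CPM in vehicle, 10.6 to 12.5 with MLN8237, 6.23 to 6.67 with chaetocin and 4.57 to 6.07 with both, and THY1 was the member that fell.

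In vehicle, the collagen transcripts were mostly those of COL18A1, the core protein of a basement membrane proteoglycan and the source of endostatin. Scaled to gene length, as RPKM computed here from the counts, COL18A1 stood at 86.5 ± 5.68 (SD, n = 3) and COL5A2, a chain of the type V fibrils that start fibre assembly, at 23.5 ± 1.34. COL1A1 followed at 7.19 ± 0.885, COL6A1 at 6.64 ± 0.522, COL7A1 at 5.98 ± 1.03 and COL11A1 at 5.54 ± 0.229. The libraries of COL1A1, COL6A1 and COL7A1 overlapped, so their order is within the spread. COL9A3 (4.21 ± 0.471), COL6A2 (3.79 ± 0.633) and COL26A1 (2.97 ± 0.229) came next, and COL5A1 was the tenth at 0.780 ± 0.118. Every other tested chain was below 0.5 RPKM. COL1A2, whose chain normally pairs with that of COL1A1 in type I collagen, had 0 reads in the 3 vehicle libraries and 13 over all 12.

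**Figure D1:**
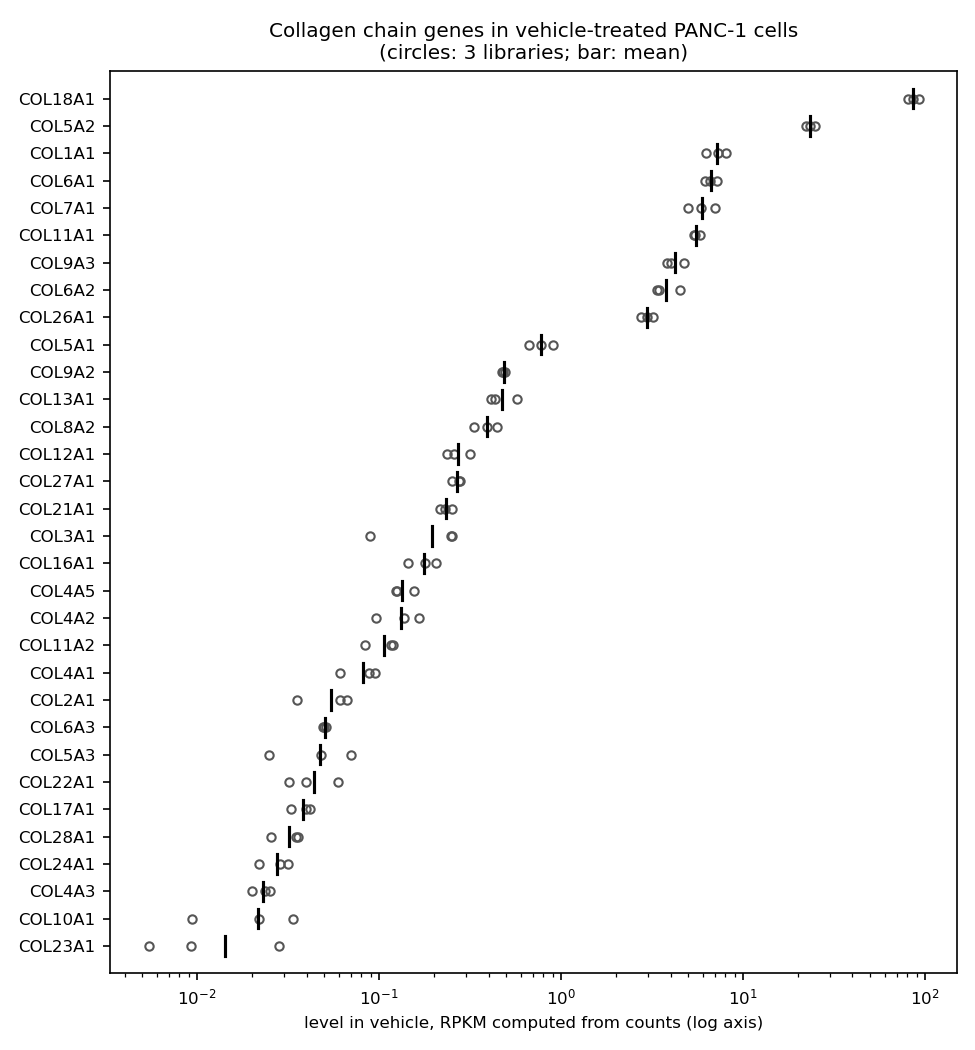
Level of each tested collagen gene in vehicle, in RPKM on a log axis, with circles for the 3 libraries and a bar at their mean. COL18A1 stands apart at 86.5 and COL5A2 follows at 23.5; COL15A1 had no read in vehicle and is not drawn.

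The 11 genes under the filter were COL1A2, COL4A4, COL4A6, COL6A5, COL6A6, COL8A1, COL9A1, COL14A1, COL19A1, COL20A1 and COL25A1. None passed 0.385 CPM in any library. COL20A1 had 81 reads in all, of which 46 were in the combination, COL4A4 had 80 and COL25A1 had 10, all in the combination. Of the 33 tested, 27 reached the filter level in all 3 vehicle libraries. COL10A1, COL15A1 and COL23A1 reached it in no vehicle library and passed through the treated groups, so the counts of changed genes below describe the tested members and are not a test of the family.

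Chaetocin lowered 8 of the 9 collagens most abundant per length in vehicle, all but COL1A1. The 6 that it raised stood at 0.268 RPKM or less there. A split by level was also seen over all genes tested, there by mean CPM over all 12 libraries, as given below. No split by vehicle level per length was made for all genes, so the pattern is not shown to be particular to collagens. The vehicle values also enter the fold change. Of 33 tested members, 6 rose and 10 fell (48.5%), against 24.5% of all genes tested (12.6% higher and 11.9% lower). COL17A1 rose by 27.4-fold, and COL15A1, with 0 reads in vehicle, by at least 18.4-fold. COL11A1 fell furthest, by 2.36 on the log2 scale. COL26A1, COL5A2, COL8A2 and COL4A5 also fell by more than 1 on that scale. The vehicle and chaetocin libraries did not overlap for 23 members, against 48% of all genes tested. An unadjusted p under 0.05 was found for 22 members, against 36.2% of all genes. The median log2 fold change was -0.39 over the tested members and 0.01 over all genes tested. Among the 20 members with a mean of at least 1 CPM over all 12 libraries, 3 rose and 9 fell, where 27.2% of all such genes were called (11.6% rose and 15.5% fell). Among the 13 members under that level, 3 rose and 1 fell. Of 22831 genes tested, 2874 rose and 2717 fell, and 1905 and 2539 of these were among the 16355 at that level. Rises thus outnumbered falls among all genes under it as well. COL15A1, among the 3 members that rose, was tested only through treated libraries.

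With both compounds, 8 members rose and 12 fell (60.6%), against 38.5% of all genes tested (20.1% higher and 18.3% lower). Libraries did not overlap for 22 members, against 54.8% of all genes, and 23 had an unadjusted p under 0.05, against 47.1%. Of the 20 members at 1 CPM or more, 3 rose and 10 fell, where 41.2% of all such genes were called (17.3% rose and 23.9% fell). The median log2 fold change was -0.30, against 0.02 over all genes. This comparison shares its vehicle libraries with that of chaetocin alone, so the values of each are given side by side below. The 16 members called with chaetocin were all among the 20 called with both, in the same direction. The other 4 were COL1A1 and COL3A1, which were lower, and COL11A2 and COL28A1, which were higher.

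**Figure D2:**
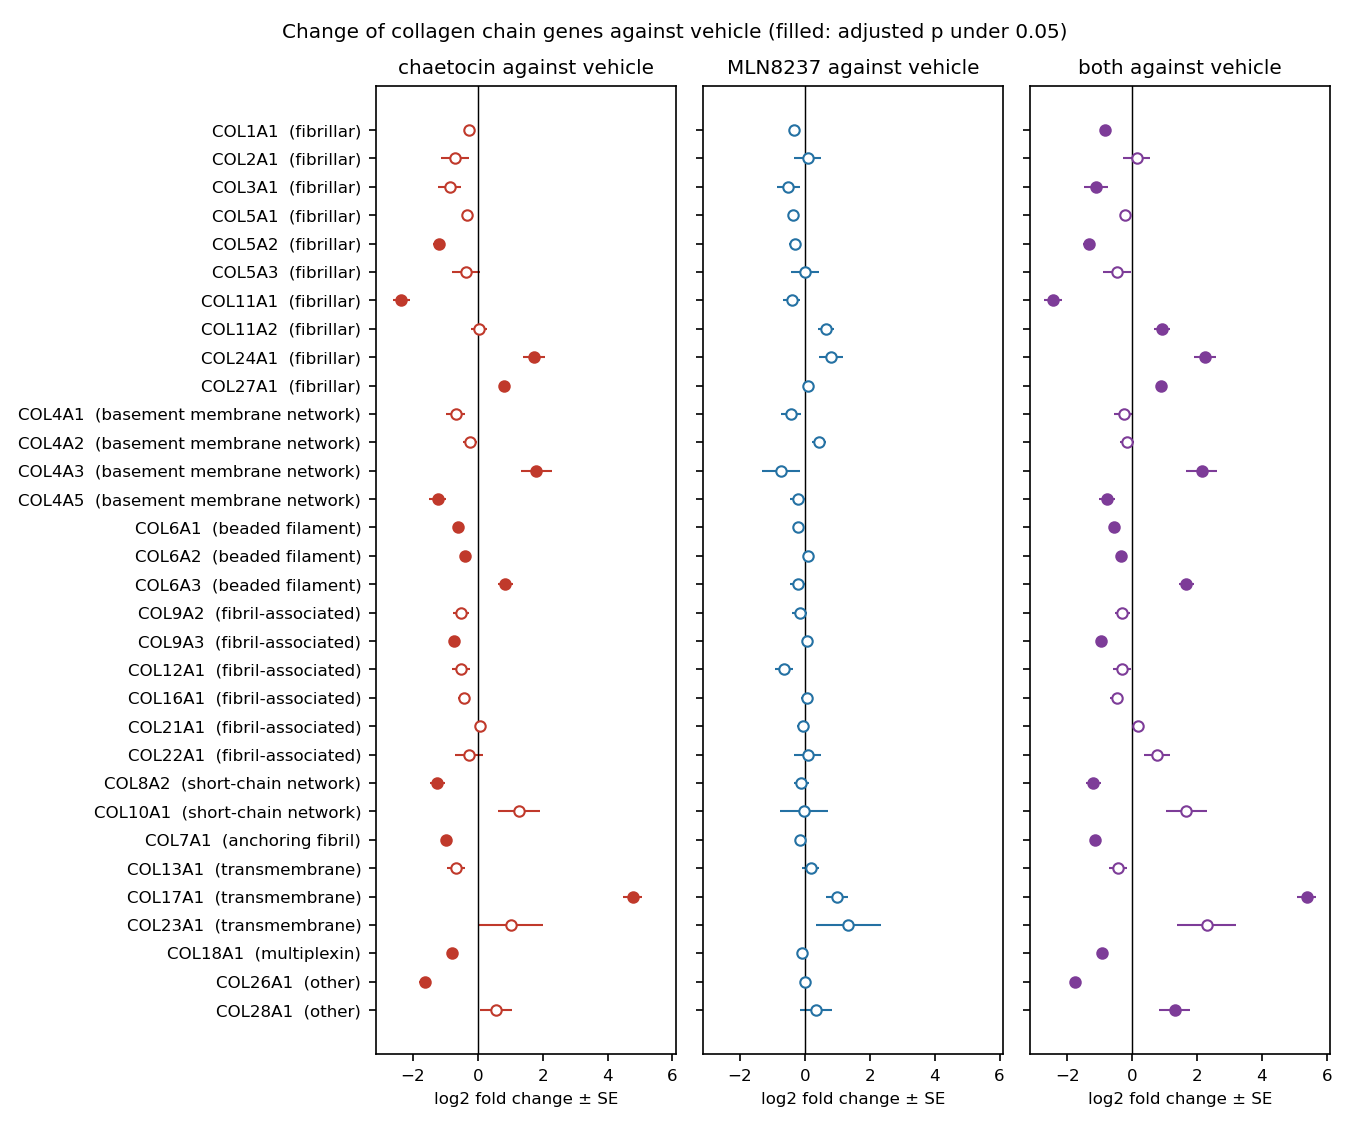
Log2 fold change of 32 tested collagen genes against vehicle with its standard error, for chaetocin, MLN8237 and both, ordered by chain class, with filled points where the edgeR adjusted p was under 0.05. The chaetocin and combination panels hold 5 and 7 filled points to the right of 0, and no point is filled for MLN8237; COL15A1, with no read in vehicle, is not drawn.

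Promoter sequences are shown for 4 of the genes that moved furthest with chaetocin, 2 in each direction. They are the 250 bases before the annotated start in RefSeq (GRCh38.p14), 5′ to 3′ on the gene's strand, and RefSeq gave such a sequence for 32 of the 44 members. Capitals mark the letters of a CCAAT box, of a TATA box (TATAAA) or of a GC box (GGGCGG), found on either strand. COL17A1 lies at chr10:104085881-104086130 on the minus strand and COL11A1 at chr1:103108523-103108772 on the minus strand. COL15A1 lies at chr9:98943657-98943906 and COL26A1 at chr7:101362625-101362874, both on the plus strand.
COL17A1: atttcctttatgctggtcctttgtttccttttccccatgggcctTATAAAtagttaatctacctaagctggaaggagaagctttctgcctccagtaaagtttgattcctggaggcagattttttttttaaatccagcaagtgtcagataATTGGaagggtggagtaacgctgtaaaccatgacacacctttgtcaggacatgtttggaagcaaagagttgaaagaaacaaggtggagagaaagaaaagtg
COL15A1: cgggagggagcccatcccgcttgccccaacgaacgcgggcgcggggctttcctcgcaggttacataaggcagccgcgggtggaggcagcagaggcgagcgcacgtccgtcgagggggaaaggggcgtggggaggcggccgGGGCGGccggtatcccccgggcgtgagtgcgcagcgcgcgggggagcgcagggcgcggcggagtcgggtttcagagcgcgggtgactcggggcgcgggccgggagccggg
COL11A1: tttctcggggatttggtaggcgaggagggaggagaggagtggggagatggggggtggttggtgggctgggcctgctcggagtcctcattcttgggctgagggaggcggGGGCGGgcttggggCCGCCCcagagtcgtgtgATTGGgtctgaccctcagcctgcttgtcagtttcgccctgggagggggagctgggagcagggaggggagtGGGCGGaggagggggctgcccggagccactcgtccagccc
COL26A1: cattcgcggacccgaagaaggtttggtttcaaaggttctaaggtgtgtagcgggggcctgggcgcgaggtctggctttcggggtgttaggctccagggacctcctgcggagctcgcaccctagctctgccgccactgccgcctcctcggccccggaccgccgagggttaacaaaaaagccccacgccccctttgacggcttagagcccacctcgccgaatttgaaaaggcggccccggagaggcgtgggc

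The promoters of the genes that rose did not look alike. That of COL17A1 had 40.4% G and C and 1 CpG, with a CCAAT box in reverse 101 bases before the start and the letters TATAAA at -206. That of COL15A1 had 76.8% G and C and 38 CpGs, with 1 GC box at -110. Among those that fell, COL11A1 had 68.8% G and C, 11 CpGs, GC boxes at -142, -128 and -40 and a reversed CCAAT box at -110, while COL26A1 had 64.8% G and C, 22 CpGs and no match to the 3 motifs. A GC box was found upstream of 4 of 6 genes that rose and 5 of the 7 with a sequence that fell, and in 42.6% of all 35116 promoters of that length. A CCAAT box was found for 1 of 6 and 2 of 7, and in 32% of all promoters. The letters TATAAA, at any position, were found for 1 of 6 and 3 of 7, and in 10.7% of all. In the 3 that fell they lay at -32 (COL6A2), -124 (COL7A1) and -204 (COL18A1). The AP-1 letters TGANTCA were found for none of the 13 (6.57% of all promoters), the antioxidant response core TGACNNNGC for 1 that fell (10.9%), and the E-box letters CACCTG for 1 that rose and 1 that fell (17.5%). Among 13 tested members with a sequence that were not called with chaetocin, 10 had a GC box, 6 a CCAAT box and 2 the letters TATAAA. Over all 32 members with a sequence, 21 had a GC box, so it was not particular to the genes that moved. A member counted if any of its listed promoters matched, while the shares of all are per promoter. The median promoter of a member held 65.2% G and C and 16 CpGs, against 58% and 11 over all promoters. A match to these letters is a description and not evidence of binding.

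The basement membrane proteoglycan COL18A1 set the summed collagen level. COL18A1 (ENSG00000182871, hg19 chr21:46825052-46933634) stood at 689.7, 735 and 786 CPM in vehicle, 440.3, 427 and 395 with chaetocin, 711, 729 and 617 with MLN8237 and 347, 480.3 and 324 with both. Every chaetocin and combination library lay below every vehicle library, and combination library 2 was the highest of its group. The log2 fold change was -0.81 ± 0.135 (SE) with chaetocin (edgeR, adjusted p = 0.000973) and -0.94 ± 0.135 with both (edgeR, adjusted p = 0.000177). The gene shares 20149 bases with SLC19A1, a folate carrier gene, whose mean level went from 301 CPM in vehicle to 180 with chaetocin, 321 with MLN8237 and 151 with both. No source used here states whether counting took strand into account, so the share of COL18A1 counts that came from SLC19A1 was not tested, and the same holds for the other overlapping genes named below.

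The 44 genes together summed to 1121, 1214 and 1288 CPM in vehicle, 719, 699 and 643 with chaetocin, 1143, 1129 and 988 with MLN8237 and 600.5, 740.4 and 547 with both. Summed levels with chaetocin and with both lay below every vehicle and MLN8237 library. COL18A1 held 57.8% to 64.9% of the collagen counts in every library, so its share stayed in a narrow range while the total fell. COL17A1 went from 0.0187% to 0.0210% of the collagen counts in vehicle to between 0.814% and 1.19% with chaetocin and between 0.888% and 2.13% with both. In bulk RNA, fewer cells expressing a gene and less RNA per cell cannot be told apart.

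**Figure D3:**
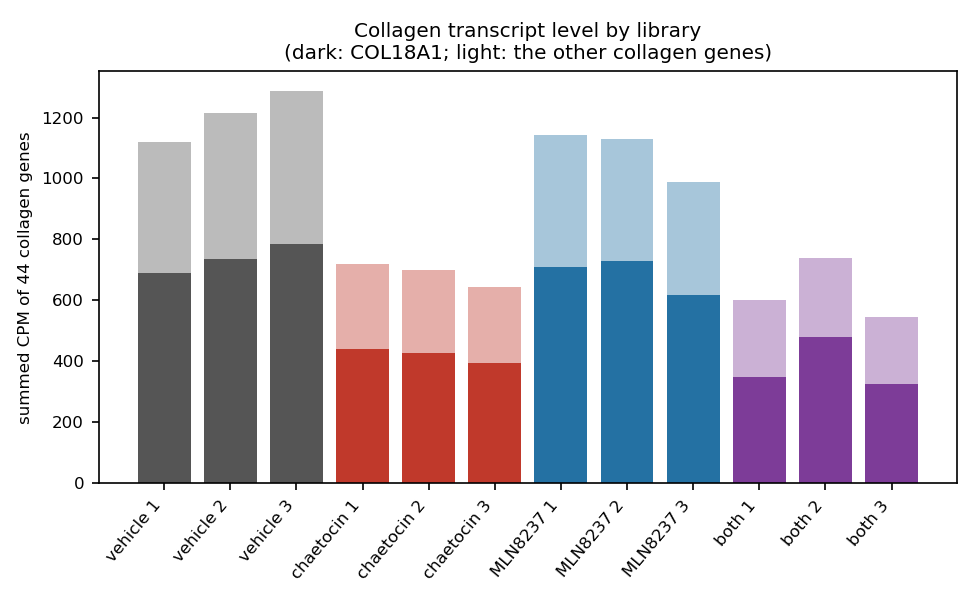
Summed CPM of the 44 collagen genes in each of the 12 libraries, with COL18A1 as the dark part of each bar and all other collagens as the light part. Vehicle bars reach 1121 to 1288, chaetocin bars 643 to 719, and the combination bars 547 to 740.4.

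COL15A1, the multiplexin relative of COL18A1, had 0 reads in all 3 vehicle libraries. It had 23, 20 and 20 reads with chaetocin, 4, 6 and 0 with MLN8237 and 38, 11 and 36 with both. Its level was thus at least 18.4-fold higher with chaetocin and at least 24.9-fold higher with both than a floor of 3 counts over the vehicle group. That floor covers counting error only. The adjusted p (edgeR, 0.0021 and 0.000649) belongs to the fitted change and not to this bound. COL15A1 passed the filter only through chaetocin and combination libraries, so these p-values add no support. Its level stayed low, at 0.350 ± 0.0474 CPM with chaetocin. Its gene lies at hg19 chr9:101705461-101833069 (ENSG00000204291).

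Among the 10 tested fibrillar chains, chaetocin raised 2 and lowered 2, and both compounds raised 3 and lowered 4. The share of all genes called was 24.5% with chaetocin and 38.5% with both, and counts within a class of this size say little against it. COL11A1 encodes a type XI chain, and in tumours it is best known from activated fibroblasts. COL11A1 (ENSG00000060718, hg19 chr1:103342023-103574052) stood at 44.3, 47.9 and 45.0 CPM in vehicle, 11.3, 9.90 and 5.59 with chaetocin, 40.7, 38.5 and 24.0 with MLN8237 and 7.97, 11.2 and 6.04 with both. All 6 libraries with chaetocin lay far below the 6 without it. The log2 fold change was -2.36 ± 0.272 with chaetocin (edgeR, adjusted p = 8.12e-05) and -2.45 ± 0.273 with both (edgeR, adjusted p = 3.26e-05).

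COL5A2 is the more abundant type V chain in these cells. COL5A2 (ENSG00000204262, hg19 chr2:189896622-190044605) stood at 158, 178 and 168 CPM in vehicle, 85.7, 75.7 and 57.3 with chaetocin, 159.9, 142 and 106 with MLN8237 and 69.0, 79.9 and 50.5 with both. Libraries with chaetocin lay below all others, and library 3 was the lowest of each treated group. The log2 fold change was -1.21 ± 0.188 with chaetocin (edgeR, adjusted p = 0.000659) and -1.34 ± 0.189 with both (edgeR, adjusted p = 0.000157). COL5A1, its partner chain, stood at 7.44, 8.65 and 10.1 CPM in vehicle, 6.32, 7.41 and 7.05 with chaetocin, 7.09, 7.23 and 6.04 with MLN8237 and 7.45, 7.97 and 7.18 with both. COL5A1 did not pass the test in any comparison (edgeR, adjusted p = 0.0879 for chaetocin). The level of COL5A2 per length was 30.5 times that of COL5A1 in vehicle (26.1 to 33.3 over libraries), 16.6 times with chaetocin (12.7 to 21.2), 31.1 times with MLN8237 and 13.7 times with both (11.0 to 15.7). The vehicle range lay above the chaetocin and combination ranges.

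COL1A1 behaved differently from these chains. COL1A1, the main chain of type I collagen (ENSG00000108821, hg19 chr17:48260650-48278993), stood at 61.5, 71.6 and 78.8 CPM in vehicle, 60.9, 60.2 and 53.0 with chaetocin, 59.9, 55.3 and 52.0 with MLN8237 and 40.4, 46.4 and 31.2 with both. Each treated group lay below vehicle, the single compounds by little, and the combination lay below all 9 other libraries. The log2 fold change was -0.28 ± 0.136 with chaetocin (edgeR, adjusted p = 0.152), -0.34 ± 0.136 with MLN8237 (edgeR, adjusted p = 0.516) and -0.85 ± 0.137 with both (edgeR, adjusted p = 0.000412). The combination and chaetocin alone did not differ past the threshold for COL1A1 (edgeR, adjusted p = 0.203). COL3A1, the chain of reticular fibres, stood at 1.70, 1.71 and 0.608 CPM in vehicle, 0.972, 0.731 and 0.485 with chaetocin, 1.07, 0.847 and 0.900 with MLN8237 and 0.529, 0.787 and 0.544 with both. Vehicle library 3 was as low as the combination, so the groups overlapped, and the call with both (-1.11 ± 0.373; edgeR, adjusted p = 0.0318) was lost without vehicle library 1 or 2 or combination library 1 or 3 (edgeR, adjusted p = 0.114, 0.123, 0.112 and 0.0929).

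The fibrillar chains that rose stood at 0.268 RPKM or less in vehicle. COL27A1, a chain known from cartilage, stood at 3.88, 3.52 and 3.85 CPM in vehicle, 5.83, 6.51 and 7.17 with chaetocin, 4.12, 4.28 and 3.67 with MLN8237 and 7.97, 5.51 and 7.40 with both. COL24A1, its close relative in structure, stood at 0.210, 0.274 and 0.304 CPM in vehicle, 0.764, 0.945 and 0.935 with chaetocin, 0.404, 0.310 and 0.680 with MLN8237 and 1.52, 0.822 and 1.39 with both. All chaetocin and combination libraries lay above all vehicle libraries for both genes. The log2 fold change was 0.79 ± 0.154 for COL27A1 (edgeR, adjusted p = 0.00248) and 1.73 ± 0.344 for COL24A1 (edgeR, adjusted p = 0.00294) with chaetocin, and 0.89 and 2.23 with both. COL11A2, another type XI chain, stood at 0.566, 0.784 and 0.805 CPM in vehicle, 0.781, 0.792 and 0.641 with chaetocin, 1.05, 1.20 and 1.14 with MLN8237 and 1.71, 0.997 and 1.38 with both. Unlike COL11A1 it was not lower with chaetocin, and every library with MLN8237, alone or in the combination, lay above those without it. It was called higher with both (0.92 ± 0.242; edgeR, adjusted p = 0.00906), and without combination library 1 that adjusted p was 0.05.

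**Figure D4:**
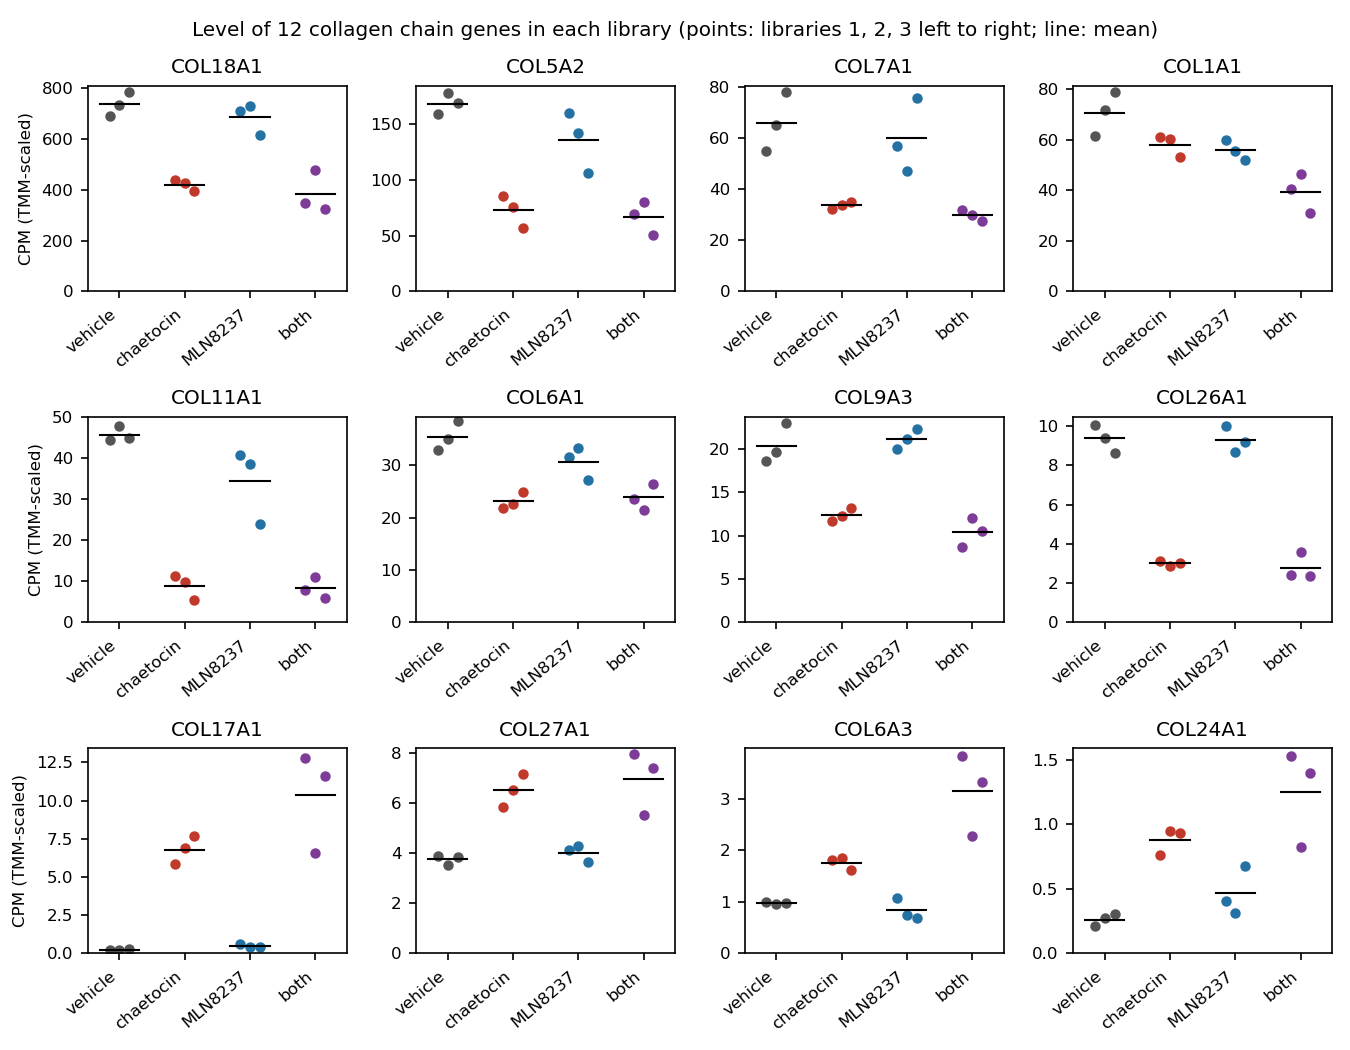
CPM of 12 collagen genes in each library, with points for libraries 1, 2 and 3 from left to right in each group and a line at the group mean; each panel has its own axis starting at 0. The upper 8 genes are among the 9 most abundant per length in vehicle; for COL1A1 the chaetocin points (53.0 to 60.9) end just under vehicle (61.5 to 78.8), and the lower 4 genes rise with chaetocin and with both.

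The 3 tested type VI chains, which assemble together into beaded filaments, moved apart. COL6A1 (hg19 chr21:47401651-47424964) stood at 32.9, 35.02 and 38.4 CPM in vehicle, 21.8, 22.6 and 24.9 with chaetocin, 31.6, 33.4 and 27.2 with MLN8237 and 23.7, 21.5 and 26.5 with both. Its neighbour COL6A2 (hg19 chr21:47518011-47552763) stood at 18.2, 18.7 and 24.3 CPM in vehicle, 14.9, 14.6 and 17.4 with chaetocin, 20.8, 21.3 and 23.9 with MLN8237 and 15.2, 15.1 and 17.7 with both. COL6A3, the long chain (ENSG00000163359, hg19 chr2:238232646-238323018), stood at 1.01, 0.967 and 0.984 CPM in vehicle, 1.81, 1.86 and 1.63 with chaetocin, 1.08, 0.744 and 0.680 with MLN8237 and 3.83, 2.27 and 3.33 with both. Libraries with chaetocin were the lowest for COL6A1 and COL6A2 and the highest for COL6A3, where the combination lay above chaetocin alone without overlap.

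COL6A1 fell by 0.62 in log2 units with chaetocin and by 0.57 with both (edgeR, adjusted p = 0.00158 and 0.00137). COL6A2 fell by 0.39 and 0.35, close to the threshold (edgeR, adjusted p = 0.0422 and 0.0444). The chaetocin call of COL6A2 was lost without vehicle library 2 or 3 or chaetocin library 1 or 2, with an edgeR adjusted p of 0.0544, 0.197, 0.116 and 0.15, and its combination call without vehicle library 3 or combination library 1 or 2 (0.196, 0.143 and 0.102). COL6A3 rose by 0.84 ± 0.231 with chaetocin (edgeR, adjusted p = 0.018) and by 1.67 ± 0.230 with both (edgeR, adjusted p = 0.000131). Its chaetocin call was lost without any 1 of the vehicle libraries or chaetocin library 2 (edgeR, adjusted p = 0.0527, 0.0567, 0.064 or 0.0644), while the fold change stayed between 0.80 and 0.85 in those fits. The level of COL6A1 per length was 132 times that of COL6A3 in vehicle (120 to 143 over libraries), 48.4 times with chaetocin (44.4 to 56.2), 140 times with MLN8237 and 28.9 times with both (22.7 to 34.7).

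Of the type IV network, 4 chains were tested, and with chaetocin 1 rose and 1 fell. COL4A5, a chain of the kidney and lung network, stood at 1.09, 1.08 and 1.36 CPM in vehicle, 0.573, 0.472 and 0.450 with chaetocin, 1.01, 1.09 and 0.922 with MLN8237 and 0.949, 0.560 and 0.544 with both. All 6 libraries with chaetocin lay below vehicle. Its log2 fold change was -1.24 ± 0.260 with chaetocin (edgeR, adjusted p = 0.00419) and -0.77 ± 0.253 with both (edgeR, adjusted p = 0.0276), and the latter call was lost without vehicle library 3 or combination library 2 or 3 (edgeR, adjusted p = 0.0958, 0.0767 and 0.102). COL4A3, which joins COL4A5 in that network, stood at 0.231, 0.182 and 0.215 CPM in vehicle, 0.764, 0.518 and 0.918 with chaetocin, 0.0368, 0.0620 and 0.285 with MLN8237 and 1.20, 0.717 and 0.868 with both. It was higher in every library with chaetocin than in any without, by 1.80 ± 0.480 in log2 units with chaetocin (edgeR, adjusted p = 0.0155) and by 2.14 with both (edgeR, adjusted p = 0.00329). The chaetocin call was lost without vehicle library 2 or 3 or chaetocin library 3 (edgeR, adjusted p = 0.0633, 0.0501 and 0.0582). COL4A3 shares 93741 bases with the gene AC097662.2, which had 1408 reads against 351 and rose from 0.513 CPM in vehicle to 2.82 with chaetocin, so the value of COL4A3 is uncertain.

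The main type IV chains of most basement membranes were scarce here. COL4A2 stood at 0.755, 1.08 and 1.31 CPM in vehicle, 0.851, 0.960 and 0.866 with chaetocin, 1.36, 1.47 and 1.40 with MLN8237 and 0.887, 0.944 and 0.970 with both. Its MLN8237 libraries were the highest, and the combination lay among the vehicle values. COL4A1, which overlaps COL4A2 over 1338 bases, had mean levels of 0.643, 0.401, 0.478 and 0.538 CPM in the same order and passed no test.

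The epithelial anchoring collagens went in opposite directions. COL17A1 encodes a transmembrane collagen of hemidesmosomes, the structures that hold basal epithelial cells to the basement membrane. COL17A1 (ENSG00000065618, hg19 chr10:105791044-105845760) stood at 0.210, 0.255 and 0.268 CPM in vehicle, 5.85, 6.87 and 7.66 with chaetocin, 0.607, 0.413 and 0.439 with MLN8237 and 12.8, 6.57 and 11.6 with both. All libraries with chaetocin lay above all without it, and combination library 2 fell within the chaetocin range while libraries 1 and 3 lay above it. The rise was 27.4-fold with chaetocin (log2 fold change 4.78 ± 0.293; edgeR, adjusted p = 1.08e-06) and 41.7-fold with both (5.38 ± 0.294; edgeR, adjusted p = 4.76e-07). The microRNA gene MIR936, which lies within COL17A1, had a mean of 0 CPM in vehicle and 0.229 with chaetocin.

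COL7A1 encodes the anchoring fibrils below that membrane. COL7A1 (ENSG00000114270, hg19 chr3:48601506-48632700) stood at 55.3, 65.2 and 78.1 CPM in vehicle, 32.4, 34.0 and 34.97 with chaetocin, 57.1, 47.2 and 75.9 with MLN8237 and 32.1, 29.9 and 27.5 with both. Chaetocin and combination libraries lay below all vehicle and MLN8237 libraries. The log2 fold change was -0.97 ± 0.159 with chaetocin (edgeR, adjusted p = 0.00089) and -1.15 ± 0.159 with both (edgeR, adjusted p = 0.000143). COL13A1, a transmembrane collagen of the neuromuscular junction and of cell adhesions, stood at 2.41, 2.54 and 3.34 CPM in vehicle, 1.16, 1.77 and 2.29 with chaetocin, 2.57, 2.69 and 4.13 with MLN8237 and 1.68, 1.82 and 2.62 with both. Library 3 was the highest in all 4 groups. COL13A1 was not called with chaetocin (-0.67 ± 0.276; edgeR, adjusted p = 0.097). The transmembrane chain COL23A1 had 9 reads in vehicle, at 1, 6 and 2 per library, and passed no test.

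Among fibril-associated chains, COL9A3 was the abundant one. COL9A3, a type IX chain from the surface of cartilage fibrils, stood at 18.6, 19.6 and 22.9 CPM in vehicle, 11.7, 12.2 and 13.1 with chaetocin, 19.9, 21.1 and 22.2 with MLN8237 and 8.64, 11.996 and 10.5 with both. Libraries with chaetocin lay below those without it. It fell by 0.72 in log2 units with chaetocin (edgeR, adjusted p = 0.00128) and by 0.97 with both (edgeR, adjusted p = 8.43e-05), alone among the 6 tested chains of its class. COL9A2, a partner chain, stood at 2.05, 1.97 and 2.003 CPM in vehicle, 1.61, 1.25 and 1.33 with chaetocin, 1.36, 2.27 and 1.76 with MLN8237 and 1.82, 1.12 and 1.96 with both. COL12A1, which links fibrils, stood at 2.96, 3.21 and 3.93 CPM in vehicle, 2.73, 2.32 and 2.01 with chaetocin, 2.87, 2.11 and 1.49 with MLN8237 and 3.24, 3.30 and 1.60 with both. Library 3 of each treated group was the lowest for COL12A1. COL16A1 stood at 1.93, 1.35 and 1.68 CPM in vehicle, 1.32, 1.31 and 1.06 with chaetocin, 1.60, 1.69 and 1.89 with MLN8237 and 1.12, 1.35 and 1.11 with both. It shares 7692 bases with the gene RP11-73M7.6, which had 903 reads against 952, so its value is uncertain. COL21A1 stood at 1.78, 1.53 and 1.63 CPM in vehicle, 2.05, 1.74 and 1.44 with chaetocin, 1.62, 1.61 and 1.51 with MLN8237 and 1.93, 1.63 and 2.02 with both. These 4 chains did not pass the test against vehicle with any treatment.

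The short-chain and remaining collagens were COL8A2, COL10A1, COL26A1 and COL28A1. COL26A1 (ENSG00000160963, hg19 chr7:101006101-101202304), a secreted chain with a short helix, stood at 10.1, 9.41 and 8.64 CPM in vehicle, 3.14, 2.88 and 3.01 with chaetocin, 10.04, 8.70 and 9.20 with MLN8237 and 2.44, 3.60 and 2.35 with both. The 6 libraries with chaetocin and the 6 without formed separate ranges. COL26A1 fell by 1.64 with chaetocin and by 1.75 with both (edgeR, adjusted p = 2.31e-05 and 8.73e-06). COL8A2, known from the basement membrane of the corneal endothelium, stood at 1.55, 2.08 and 1.84 CPM in vehicle, 0.868, 0.701 and 0.745 with chaetocin, 1.71, 2.004 and 1.34 with MLN8237 and 0.669, 1.05 and 0.680 with both. It fell without overlap, by 1.24 ± 0.239 with chaetocin and by 1.19 ± 0.239 with both in log2 units (adjusted p = 0.00242 and 0.0017 by edgeR).

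COL28A1 and COL10A1 were near the detection limit. COL28A1, a relative of the type VI chains, had 8, 13 and 13 reads in vehicle, 9, 28 and 21 with chaetocin, 13, 10 and 17 with MLN8237 and 31, 16 and 49 with both. Its call with both (1.31 ± 0.473; edgeR, adjusted p = 0.0433) was lost without any 1 of the vehicle libraries (edgeR, adjusted p = 0.128, 0.086 and 0.0864) and without combination library 1 or 3 (0.075 and 0.217). COL10A1, known from hypertrophic cartilage, had 4, 7 and 2 reads in vehicle, 12, 20 and 5 with chaetocin, 6, 2 and 4 with MLN8237 and 19, 22 and 7 with both. It lies within NT5DC1, which had 44486 reads against 110, so its reads are uncertain. The tested chains COL2A1, COL4A1, COL5A3, COL22A1 and COL23A1 ranged from 0 to 0.851 CPM over the 12 libraries.

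MLN8237 alone gave no called collagen. Of 33 tested members 0 passed in either direction with edgeR, with a lowest adjusted p of 0.516, against 0.00438% of all genes tested. At an unadjusted p under 0.05 there were 7 members with edgeR, 7 with DESeq2 and 4 with limma-voom, where edgeR gave 8.49% of all genes. The 7 by edgeR were COL17A1 (log2 fold change 0.99), COL24A1 (0.80), COL11A2 (0.64), COL15A1 with 10 reads against 0, COL12A1 (-0.64), COL5A1 (-0.36) and COL1A1 (-0.34). Libraries did not overlap for 8 members, against 14% of all genes. The median standard error of a member's log2 fold change was 0.246, and the median change was -0.03.

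No collagen was called between the combination and chaetocin alone. With edgeR 0 of 33 members passed, with a lowest adjusted p of 0.203, and 0% of all genes tested did. At an unadjusted p under 0.05 there were 5 members, against 11.7% of all genes. They were COL1A1 (-0.56 ± 0.136), COL6A3 (0.83 ± 0.219), COL11A2 (0.88 ± 0.239), COL17A1 (0.61 ± 0.217) and COL22A1 (1.04 ± 0.404), with an edgeR adjusted p of 0.203, 0.213, 0.216, 0.307 and 0.349. DESeq2 and limma-voom each also gave 5 members at an unadjusted p under 0.05. Without combination library 2, 3 rose (COL6A3, COL11A2 and COL17A1) and COL1A1 fell, with an edgeR adjusted p of 0.0295, 0.0364, 0.0289 and 0.0289. That setting moved the whole table, with 281 genes higher and 292 lower of 23573 tested. With all libraries DESeq2 called COL6A3 and COL1A1 (adjusted p = 0.0351 and 0.025), among 196 genes higher and 100 lower of 22831.

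Against MLN8237 alone, the combination had 7 members higher and 12 lower (57.6%), where 45.9% of all genes tested were called (23.3% higher and 22.7% lower). Libraries did not overlap for 21 members, against 51.3% of all genes, and 21 had an unadjusted p under 0.05, against 53.1%. COL17A1 rose by 4.40 ± 0.272, COL4A3 by 2.89 ± 0.518, COL6A3 by 1.9 ± 0.234 and COL24A1 by 1.43 ± 0.322 in log2 units (adjusted p by edgeR = 8.51e-07, 0.000735, 5.92e-05 and 0.00317). COL27A1, COL15A1 and COL10A1 were the other 3 that rose. COL15A1 and COL10A1 reached the filter level only in libraries with chaetocin, and in none with MLN8237 alone. Their calls here add no support, and the count of members higher includes them. COL11A1 fell by 2.04, COL26A1 by 1.74, COL8A2 by 1.08, COL5A2 by 1.03, COL9A3 by 1.02 and COL7A1 by 1.01. COL18A1, COL1A1, COL6A1, COL6A2, COL4A2 and COL16A1 fell by less, and COL4A2 and COL16A1 were called in no other comparison. The calls of COL4A2, COL16A1, COL10A1 and COL6A1 were close to the threshold. COL4A2 was lost under 9 of 14 alternatives (without any 1 of the 6 libraries compared, without the 3 treated libraries numbered 3, without a filter and on the compared groups alone), with a log2 fold change of -0.63 to -0.52 over all 14. COL16A1 was lost under 8 of 14 (-0.64 to -0.41), COL10A1 under 7 of 12 (1.34 to 2.12) and COL6A1 under 3 of 14 (-0.52 to -0.29), each keeping its direction. Without MLN8237 library 2, for example, the edgeR adjusted p of the 4 was 0.0892, 0.0763, 0.136 and 0.0657. With the replicate number as a block, COL13A1 was also lower (-0.61; edgeR, adjusted p = 0.00707 against 0.0831 without the block).

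The interaction measures how far the combination departs from the added log2 changes of the single compounds. It was called for 0 of 33 collagens with edgeR (lowest adjusted p = 0.362) and for 0% of all genes tested. At an unadjusted p under 0.05 there were 3 members with edgeR, 4 with DESeq2 and 2 with limma-voom, where edgeR gave 13.6% of all genes. COL6A3 had the smallest p, with a departure of 1.06 ± 0.327 from the sum. The median standard error of a member's interaction was 0.343.

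Genes that make, bind or break down collagen were followed as 6 lists. Their counts are to be read beside the share of all genes tested that were called, 24.5% with chaetocin (12.6% higher and 11.9% lower) and 38.5% with both (20.1% higher and 18.3% lower). Chaetocin lowered 9 and raised 1 of 18 genes for chain modification and folding, with a median log2 fold change of -0.40. P4HA1, a subunit of the prolyl 4-hydroxylase that stabilises the helix, went from 74.2 ± 3.21 CPM in vehicle to 40.4 ± 1.31 with chaetocin and 45.6 ± 1.57 with both (log2 fold change -0.88 ± 0.0771 with chaetocin; edgeR, adjusted p = 9.88e-06). COLGALT1, which adds galactose to hydroxylysine, went from 125 to 73.2 and 64.9 CPM, and the collagen chaperone FKBP10 from 123 to 73.8 and 65.9. LEPREL2, a prolyl 3-hydroxylase, went from 21.1 to 12.03 and 9.10 CPM. With both compounds 10 of the 18 were lower and 1 higher. Of 9 genes for export in large vesicles 3 fell with chaetocin, among them SAR1B (-0.59 on the log2 scale), SEC23A (-0.53) and MIA3, the procollagen receptor at exit sites (-0.43). SEC24D, a coat protein gene, went from 27.99 to 26.2 and 32.2 CPM and was not called. With both, 2 of the 9 were lower, so the export list lay near the share of all genes with chaetocin and below it with both.

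Over all genes tested, 24.5% were called with chaetocin and 38.5% with both. Among processing and cross-linking genes, 4 of 13 tested fell and 0 rose with chaetocin by edgeR, and 5 fell and 1 rose with both. Lysyl oxidases, which cross-link collagen, make up 5 of these genes, and LOXL1, LOXL2 and LOXL4 fell with chaetocin. LOX went from 2.34 to 3.15 CPM and LOXL3 from 8.91 to 9.92 CPM, and neither passed the test (edgeR, adjusted p = 0.263 and 0.601). LOXL1 stood at 13.7, 11.8 and 13.6 CPM in vehicle, 4.18, 3.70 and 5.80 with chaetocin, 12.4, 13.1 and 11.98 with MLN8237 and 3.89, 3.74 and 4.15 with both. LOXL2, the most abundant of those named, stood at 90.0, 92.5 and 94.8 CPM in vehicle, 43.5, 39.2 and 37.1 with chaetocin, 89.7, 93.9 and 61.0 with MLN8237 and 29.9, 40.2 and 31.8 with both. Chaetocin libraries were lower without overlap for both genes (log2 fold changes -1.52 and -1.21; edgeR, adjusted p = 2.8e-05 and 0.000151). LOXL4 fell by 1.48 with chaetocin and by 1.65 with both. ADAMTS3, a procollagen peptidase, fell by 1.57 with both (edgeR, adjusted p = 0.00701) and was not called with chaetocin (edgeR, adjusted p = 0.0572).

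Receptors for collagen went both ways. Of 10 tested, 3 rose and 4 fell with chaetocin, and 4 rose and 4 fell with both, where 24.5% and 38.5% of all genes were called. GP6, known as the platelet collagen receptor, went from 4.204 to 12.3 and 11.2 CPM, DDR2, a kinase that binds fibrillar collagen, from 0.994 to 2.21 and 3.13, and ITGA1, an integrin chain, from 1.59 to 2.77 and 4.17. MRC2, which takes up collagen fragments, went from 80.1 to 44.7 and 43.9 CPM. Of 11 degradation genes tested, 2 rose and 4 fell with chaetocin, and 4 rose and 4 fell with both. MMP2, a gelatinase, went from 75.6 to 34.5 and 30.5 CPM, and MMP14, which activates it, from 22.3 to 12.5 and 12.5. The lysosomal protease gene CTSL went from 66.6 to 129 and 139 CPM. TIMP2, an inhibitor of metalloproteinases, went from 68.9 to 47.1 and 36.5 CPM (edgeR, adjusted p = 0.00188 with chaetocin).

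Partners of the basement membrane collagens went both ways. Of 15 tested, 4 rose and 7 fell with chaetocin, and 4 rose and 6 fell with both, where 24.5% and 38.5% of all genes were called. LAMA2, a laminin chain of muscle, stood at 0.314, 0.474 and 0.340 CPM in vehicle, 3.58, 4.51 and 3.67 with chaetocin, 0.331, 0.351 and 0.417 with MLN8237 and 10.3, 5.54 and 9.71 with both. It rose by 3.37 ± 0.270 with chaetocin (edgeR, adjusted p = 5.45e-06), and combination library 2 was again the lowest of its group. LAMA3, the laminin chain that hemidesmosomes bind, went from 3.29 to 11.9 and 10.7 CPM and LAMA1 from 0.158 to 0.932 and 2.07. AGRN, a heparan sulfate proteoglycan like COL18A1, went from 184 to 81.3 and 70.4 CPM (log2 fold change -1.17 with chaetocin; edgeR, adjusted p = 6.96e-05). With MLN8237 alone no gene of these 6 lists passed with edgeR. Among the genes followed by the naming rule, MMP14, CTSL, SEC24D, FKBP10 and COLGALT1 overlap no other annotated gene, and the rest do.

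**Figure D5:**
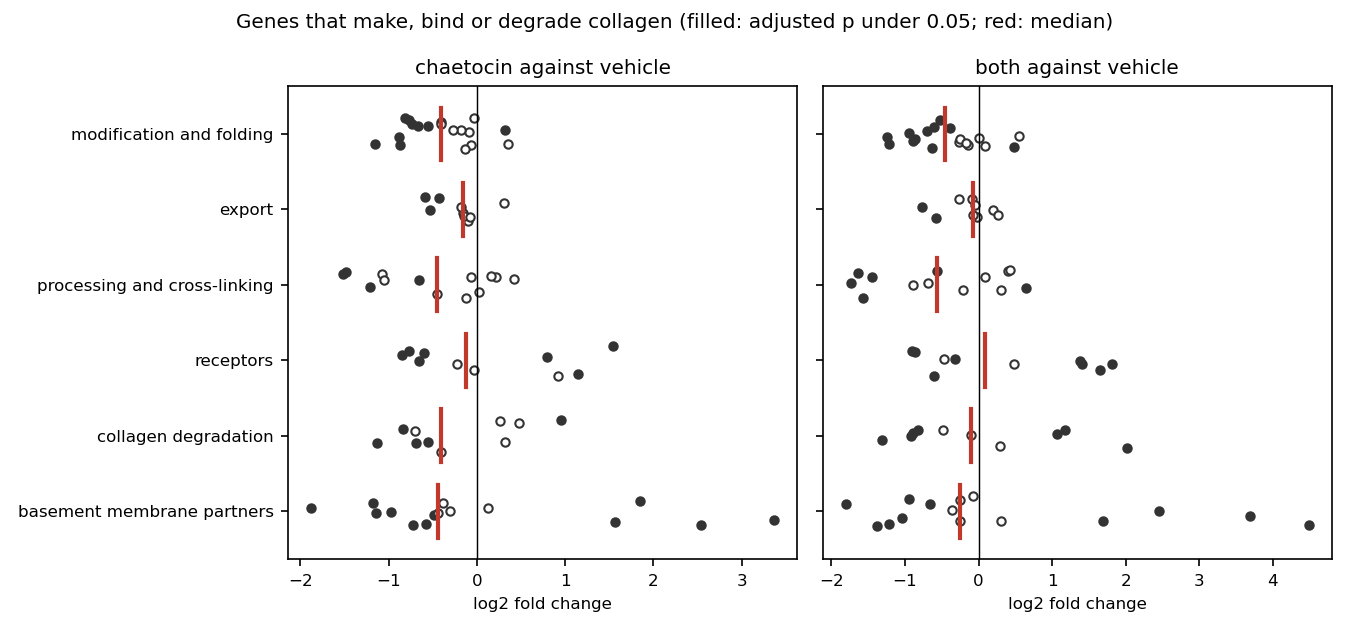
Log2 fold change against vehicle of the tested genes in 6 lists that make, bind or degrade collagen, for chaetocin and for both, with filled points where the edgeR adjusted p was under 0.05 and a red bar at the list median. Filled points lie mostly left of 0 for modification, export and cross-linking, and on both sides for receptors, degradation and basement membrane partners; MMP13, with no read in vehicle, counts in the median but is not drawn.

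Markers of other cell types moved beside the collagens that appeared. The endothelial marker VWF was the one marker of its list that passed the filter. The 3 endothelial markers in the table summed to 0 CPM in vehicle, 0 to 0.0826 with MLN8237, 1.32 to 1.58 with chaetocin and 1.29 to 4.08 with both. The summed immune markers, mostly CD68, stood at 153 to 179 CPM in vehicle, 164 to 230 with chaetocin, 169 to 200 with MLN8237 and 166 to 229 with both. PTPRC, which defines leukocytes, had 0 reads in vehicle and 27, 19 and 22 with chaetocin. Their part in the changes of COL15A1, COL17A1 and the other collagens was not tested.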

How the data were processed

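RNA sequencing libraries of PANC-1 cells in 4 groups of 3 were analysed. The authors deposited 1 table that gives, per the file headers, raw counts and RPKM for each gene in each library, beside its position and length. The submitters' processing notes name CASAVA, TopHat, HTSeq and hg19, without roles, and whether strand was used in counting is not stated. Deposited RPKM values were not used, and levels per length were computed from the counts. All 12 libraries were fitted together in edgeR 4.0.16 (R 4.3.3) with the default filter by group (at least 15 counts in total), TMM scaling and a robust quasi-likelihood test. Benjamini-Hochberg adjustment ran over 22831 genes, and an adjusted p under 0.05 was called. CPM is TMM-scaled. The script was tested on simulated data.

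Members and lists were chosen with earlier results of these data known. Members were given library by library if they passed in any of 6 contrasts or had at least 1 CPM in vehicle. Up to 4 genes with the smallest p were named per list, and LOX and LOXL3 were added beside the other lysyl oxidases. The fit was repeated with RLE scaling, without a filter, with a filter of 1 CPM in 6 libraries, with limma-voom (limma 3.58.1), with DESeq2 1.42.0, with a block for replicate number, on the compared groups alone, without each library and without the 3 treated libraries numbered 3. Same-numbered libraries of the combination and MLN8237 deviated together (correlation 0.168 to 0.624 over 3 pairs). Differently numbered libraries of these groups ran from -0.606 to 0.375, and MLN8237 library 2 lay closer to combination library 1 than to library 2. Same-numbered libraries of chaetocin and MLN8237 ran from 0.256 to 0.659, and those of chaetocin and the combination from 0.0437 to 0.73. The treated libraries numbered 3 deviated together (0.624 to 0.730). With libraries 1 and 2 of the other treated groups they ran from -0.701 to -0.172. What the libraries numbered 3 shared was not tested. The numbers thus do not establish a pairing, and the block is only an alternative run. Counts of changed members rest on totals of 49439795 to 63747510 per library.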

Additional observations from a re-analysis of the deposited data

How the results depend on the processing

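Direction was followed only for member results with an unadjusted edgeR p under 0.05 in the main fit. None of these changed direction under any alternative run. The stricter filter, which tests 21 members, left 3 higher and 8 lower with chaetocin, 4 and 9 with both against vehicle and 3 and 11 with both against MLN8237, and COL6A2 was lost with chaetocin and with both (edgeR, adjusted p = 0.063 and 0.1) and COL16A1 against MLN8237 (0.0566). Between the combination and chaetocin, DESeq2 gave 1 higher and 1 lower and no filter gave 1 lower (COL1A1). With each library left out, chaetocin against vehicle gave 4 to 6 higher and 9 to 11 lower, both against vehicle 7 to 8 higher and 10 to 12 lower, both against MLN8237 6 to 7 higher and 9 to 11 lower, and both against chaetocin 0 to 3 higher and 0 to 1 lower, the upper ends without combination library 2. MLN8237 against vehicle and the interaction gave 0 throughout. The causes were not tested. RLE scaling ended the call of COL6A2 with both (adjusted p = 0.0552), and limma-voom ended those of COL3A1 and COL28A1 with both (0.0747 and 0.0796) and of COL10A1 against MLN8237 (0.0761). Without a filter, COL6A2 with chaetocin (0.053), COL4A5 with both (0.0568) and COL16A1, COL10A1 and COL4A2 against MLN8237 (0.114, 0.0526 and 0.107) were lost. On the compared groups alone, COL4A5 with both (0.054) and COL16A1, COL4A2 and COL6A1 against MLN8237 (0.104, 0.0796 and 0.0728) were lost. Without the 3 treated libraries numbered 3, chaetocin gave 6 higher and 11 lower and the combination 9 and 12.

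With the replicate number as a block, the counts were 6 higher and 11 lower with chaetocin, 9 and 13 with both against vehicle and 7 and 13 with both against MLN8237. COL13A1 then passed with chaetocin (edgeR, adjusted p = 0.00713) and COL10A1 with both against vehicle (edgeR, adjusted p = 0.0262). In these comparisons not all same-numbered libraries deviated together (lowest correlation -0.246 and -0.356). The block changed no other call of the combination against MLN8237 than that of COL13A1. Depth limits the scarce members: 13 of 33 had a mean under 1 CPM.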
